A study of Mus musculus with 56 samples.

Results

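The genes described are 10 members of clade A of the serpins that the liver secretes into plasma: the 5 α1-antitrypsin paralogs Serpina1a to Serpina1e, Serpina3k, Serpina3n, the hormone carriers Serpina6 and Serpina7, and Serpina10. They were chosen by name, and the first listed transcript of each was taken from an RNA-seq table of 23813 genes. Liver RNA from 12 male mice was sequenced, 4 in each of 3 groups, and for 16 days all 12 ate an iodine-poor diet that contained 0.15% propylthiouracil (PTU), a blocker of thyroid hormone synthesis. Hypothyroid wild type (WT) mice received the diet and vehicle, hyperthyroid WT mice received the diet and 5 μg triiodothyronine (T3) by injection on the last 4 to 6 days, and hypothyroid L-NCOR1ΔID mice received the diet and vehicle. L-NCOR1ΔID mice express in the liver an NCOR1 corepressor without the domains that bind the thyroid hormone receptor. The 2 comparisons share the 4 hypothyroid WT libraries, and they ask how the genes respond to T3 and how they differ with this mutant NCOR1. The authors propose that the deleted domains may also recruit NCOR1 to regulators other than the thyroid hormone receptor. The L-NCOR1ΔID mice were kept on a mixed C57BL/6;129S background. WT littermates of another mutant of the study were kept on a C57BL/6J and NIH Black Swiss background. Over all mice of the study, the mean age was lower in hypothyroid L-NCOR1ΔID than in hypothyroid WT mice. The labels give no strain or age for single mice. Differences in strain or age therefore cannot be told apart from an effect of the mutation.

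Serpins are inhibitors that trap a protease by offering an exposed loop as bait, after which the serpin changes shape and carries the protease out of circulation. Clade A also holds members that no longer inhibit proteases and use the same fold to carry hormones: Serpina6 encodes corticosteroid-binding globulin, which carries glucocorticoids, and Serpina7 encodes thyroxine-binding globulin, which carries thyroid hormone. α1-antitrypsin, the product of 1 gene in humans, is made from several neighbouring copies in mice, and the number of copies is known to differ among inbred strains. Serpina3k is known as a kallikrein-binding protein, Serpina3n as an antichymotrypsin-like inhibitor that rises in inflammation, and Serpina10 as the protein Z-dependent inhibitor of coagulation factor X.

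As estimated from the steps between low values, the libraries held 29100000 to 38200000 reads in hypothyroid WT, 21300000 to 26100000 in hyperthyroid WT and 38000000 to 42700000 in L-NCOR1ΔID mice. Values are RPKM (reads scaled to the length of the transcript and to the aligned reads of the library). Levels can thus be compared between genes, except between paralogs that share sequence, as described below. Fold changes are on the scale of log2(RPKM + 0.1), and a gene was called at an adjusted p under 0.01 with limma. Ncor1, the targeted gene, was listed at 14.1 to 15.6 RPKM in hypothyroid WT and at 12.1 to 13.9 RPKM in L-NCOR1ΔID mice, a difference that was not called, and the value of a whole gene does not check the loss of some of its exons. Thrsp and Dio1, known targets of T3, rose in hyperthyroid WT mice by 2.29 and 6.20 on the log2 scale. Dio1 varied widely among hypothyroid WT mice, at 0.719 to 57.7 RPKM, and was at 459 to 641 RPKM in hyperthyroid WT mice. Hepatocyte markers were present in every library (summed RPKM from 22800.0 to 56810.0), and 3 of 9 tested fell with T3, among them Alb and Ttr. All 9 tested Kupffer cell and macrophage markers rose, with summed levels of 72.02 to 103 RPKM in hypothyroid and 216 to 330.0 RPKM in hyperthyroid WT mice. Among all genes tested with T3, 7.71% were called lower and 24.5% higher. Over all genes tested, log2 fold changes had a median of 0.23 with T3 and 0.03 in L-NCOR1ΔID mice. Changes of the members with T3 are therefore also given relative to that median.

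The 5 Serpina1 coding sequences are 1242 bases each and identical at 96.3% to 98.5% of positions in every pair, with 86 positions that vary among them. The window of 60 bases with the most variable positions, 18, begins at base 1101 of the coding sequence and covers the loop that serves as bait for the protease. It is shown because it tells the paralogs apart both for the reads and for the proteases they meet, with capitals at the positions that vary and the sequences taken from the GENCODE M1 transcripts.
Serpina1a: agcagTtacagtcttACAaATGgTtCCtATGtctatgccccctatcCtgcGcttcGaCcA
Serpina1b: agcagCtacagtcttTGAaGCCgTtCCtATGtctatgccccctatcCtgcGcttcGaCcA
Serpina1c: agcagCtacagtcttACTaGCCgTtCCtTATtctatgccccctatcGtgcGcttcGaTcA
Serpina1d: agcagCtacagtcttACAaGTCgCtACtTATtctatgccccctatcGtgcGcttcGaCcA
Serpina1e: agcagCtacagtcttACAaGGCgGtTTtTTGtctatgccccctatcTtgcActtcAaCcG
Since the authors counted uniquely aligned reads, a stretch that 2 paralogs share gives no value to either. Of all windows of 50 bases in the longest transcript, 45.1% of Serpina1a, 55.02% of Serpina1b, 26.7% of Serpina1c, 52.0% of Serpina1d and 65.3% of Serpina1e occur in no other gene's coding transcripts. The share was 82.9% for Serpina3k, 93.2% for Serpina3n, and all windows of Serpina6, Serpina7 and Serpina10 were unique. The level of a Serpina1 paralog relative to another is therefore uncertain, Serpina1c most, and the read length was not given in the sources used here.

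In hyperthyroid WT mice, 3 of the 10 genes were called: Serpina7 fell, and Serpina1b and Serpina1d rose. Of all 13941 genes tested, 32.2% were called in this comparison, 24.5% higher and 7.71% lower, so that the number of members called was near the share of all genes. Among all called genes 76.0% were higher, against 47.2% when libraries were scaled by the median of gene ratios, and under that scaling Serpina1d was no longer called while no member changed its direction. The median log2 fold change of the 10 genes was 0.35, beside 0.23 for all genes.

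Serpina7 had the largest change of the 10 genes, and its level was 54.3, 15.1, 14.5 and 33.8 RPKM in the hypothyroid WT libraries 1 to 4. In the hyperthyroid WT libraries it was 0.084, 0.270, 0.318 and 0.666 RPKM, which corresponds to about 4.9 to 40.5 reads over a transcript of 2330 bases, against about 983 to 3961 reads in hypothyroid WT. Every hyperthyroid library lay far below every hypothyroid one, although the hypothyroid libraries themselves spread over a 3.75-fold range, with replicates 1 and 4 above replicates 2 and 3. The mean fell 88.0-fold, from 29.4 ± 18.8 to 0.335 ± 0.243 RPKM (SD, n = 4 each), and the log2 fold change was -6.04 (95% confidence interval -7.20 to -4.89, adjusted p = 3.6e-05), or -6.27 relative to the median of all genes. The size depends on the pseudocount, -4.32 with a pseudocount of 1 and -6.51 with 0.01, and the call was kept under every alternative and without any single library. These are bulk samples, in which fewer cells of a type and less RNA per cell cannot be told apart.

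The promoter of Serpina7 is shown because this gene had the largest response to T3. It is the 250 bases before the start, RefSeq on GRCm38.p6 at chrX:139085237-139085486 (minus strand), with the only match to GTTAAT, the core of sites for the hepatocyte factor HNF1, in capitals.
Serpina7: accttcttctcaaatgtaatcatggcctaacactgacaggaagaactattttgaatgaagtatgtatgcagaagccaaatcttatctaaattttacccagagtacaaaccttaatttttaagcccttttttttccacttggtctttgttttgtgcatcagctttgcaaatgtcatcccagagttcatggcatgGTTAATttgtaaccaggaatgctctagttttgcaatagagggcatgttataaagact
The match ends 51 bases before the start. GTTAAT on either strand occurs in 6.43% of the 32851 promoters of that length and in 6 of the 7 members with an entry, Serpina7 and the 5 Serpina1 paralogs. The promoters of the 5 paralogs are near-copies of each other, so that their matches are not separate ones. AGGTCA, the half-site that nuclear receptors such as the thyroid hormone receptor bind, occurs on either strand in 14.0% of all promoters and in 0 of these 7, which says only that these letters are not in this window.

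Serpina6, the other hormone carrier, was not called with T3. Its level was 279, 151, 155 and 235 RPKM in hypothyroid WT and 222, 264, 248 and 217 RPKM in hyperthyroid WT libraries. The hyperthyroid values lay inside the hypothyroid range, in which replicates 1 and 4 were again above replicates 2 and 3. The log2 fold change was 0.26 (95% confidence interval -0.18 to 0.70, adjusted p = 0.29), or 0.03 relative to the median of all genes.

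Of the other plasma carriers of hormones and vitamins, 8 were tested with T3, of which 2 rose and 4 fell (1 and 3 when scaled by the median of gene ratios). Their median log2 fold change was -0.23, and among all genes tested 24.5% were called higher and 7.71% lower. Both other carriers of thyroid hormone fell: Ttr, which encodes transthyretin, from 4411 ± 644 to 1502 ± 230 RPKM (log2 fold change -1.55, adjusted p = 0.00011), and Alb, which encodes albumin, from 31804 ± 4200 to 14325 ± 2510 RPKM (log2 fold change -1.16, adjusted p = 0.0082). When libraries were scaled by the median of gene ratios, Alb had a log2 fold change of -1.39 with an adjusted p of 0.022 and was no longer called. The vitamin D carrier Gc and the cobalamin carrier Tcn2 fell by 0.60 and 0.48 on the log2 scale, while the IGF carrier Igfbp4 rose by 0.77. Ttr and Alb were also counted among the hepatocyte markers above. All 3 carriers of thyroid hormone were thus lower with T3, by very different sizes, and the difference between their sizes was not tested.

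Serpina1b had the highest RPKM of the α1-antitrypsin paralogs, although its rank above Serpina1c is uncertain (55.02% against 26.7% unique windows). Serpina1b was at 1184, 1419.7, 1290.4 and 1424 RPKM in hypothyroid WT and at 2739, 2427, 2343 and 2709 RPKM in hyperthyroid WT libraries. The groups did not overlap, and the mean rose 1.92-fold (log2 fold change 0.94, 95% confidence interval 0.66 to 1.22, adjusted p = 0.00035), or 0.71 on the log2 scale relative to the median of all genes. Serpina1d rose by a like amount, from 573, 477, 377 and 663 RPKM to 1140.5, 966, 816 and 1018 RPKM, also without overlap. Its log2 fold change was 0.94 (95% confidence interval 0.53 to 1.34, adjusted p = 0.0027), or 0.70 relative to the median of all genes, and it was 0.70 with an adjusted p of 0.023 when libraries were scaled by the median of gene ratios. Among all genes tested, 35.8% had every hyperthyroid library above every hypothyroid one and 10.8% had every one below, against 2 and 1 of the members.

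The other 3 paralogs were not called with T3. Serpina1a was at 313 to 442 RPKM in hypothyroid WT and at 382 to 622 RPKM in hyperthyroid WT libraries, with a log2 fold change of 0.36 (95% confidence interval -0.01 to 0.74, adjusted p = 0.099). Serpina1c was at 845 to 1056 and at 641 to 936 RPKM, with a log2 fold change of -0.32 (95% confidence interval -0.66 to 0.03, adjusted p = 0.11). Serpina1e was at 469 to 705 and at 318 to 613 RPKM, with a log2 fold change of -0.28 (95% confidence interval -0.75 to 0.19, adjusted p = 0.29). Relative to the median of all genes, Serpina1c was at -0.55 and Serpina1e at -0.51, while Serpina1a was at 0.13.

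**Figure D1:**
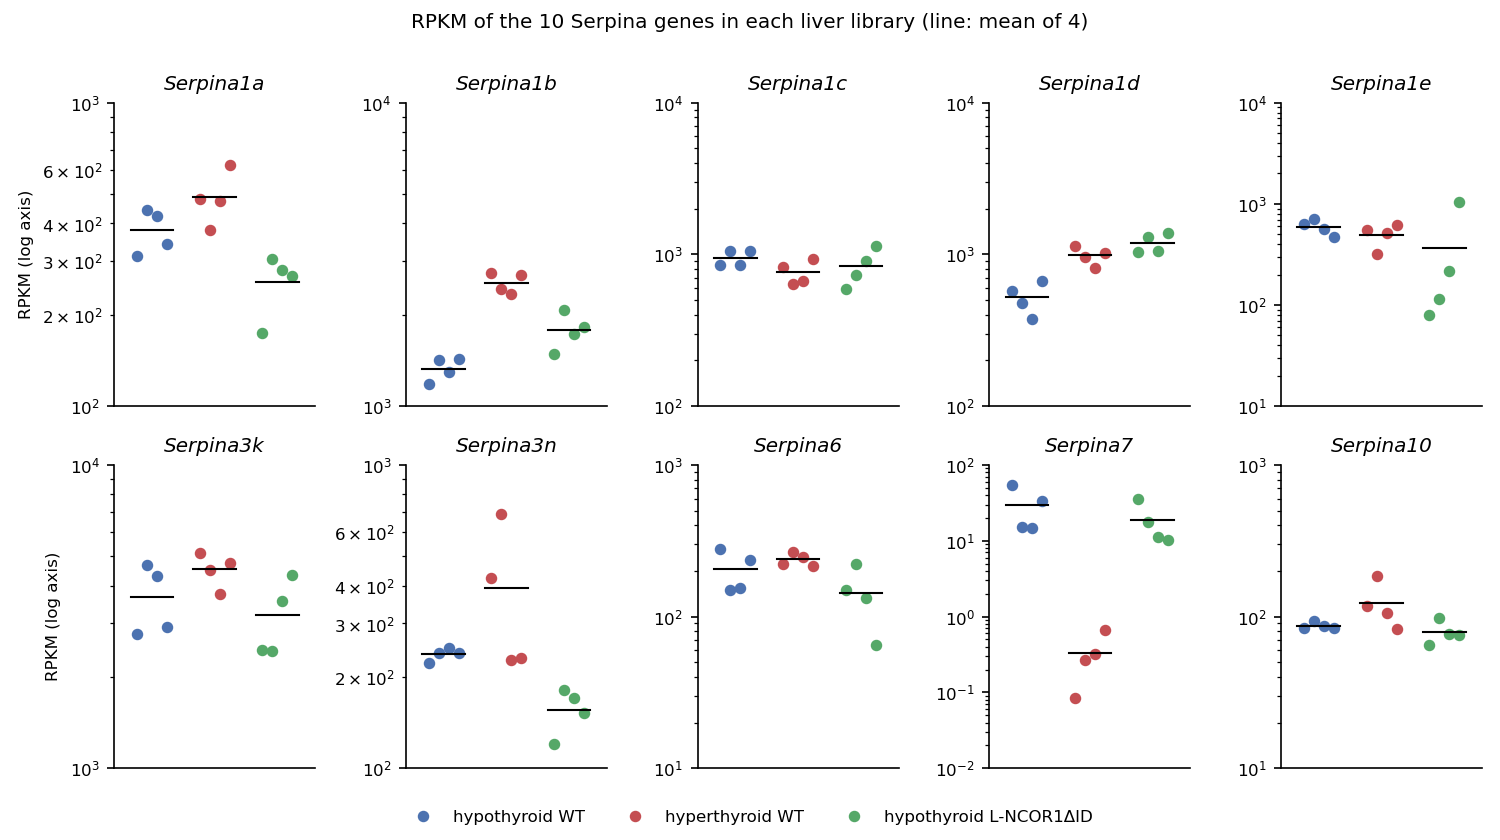
RPKM (log axis, with a range of its own in each panel) of the 10 genes in the 4 libraries of each group, replicates 1 to 4 from left to right, with a line at the group mean. Serpina7 lay at 0.084 to 0.666 RPKM in hyperthyroid WT and at 10.2 to 54.3 RPKM in the other groups, and Serpina1e spread from 79.97 to 1042 RPKM among the L-NCOR1ΔID libraries.

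The summed level of the 5 paralogs was 3555, 4097, 3496 and 3953 RPKM in hypothyroid WT and 5737, 4734, 4810.3 and 5899 RPKM in hyperthyroid WT libraries, without overlap. Within this sum, Serpina1b took 35.2% ± 1.59 in hypothyroid WT and 48.4% ± 2.23 in hyperthyroid WT libraries (SD, n = 4 each). The share of Serpina1d was 13.8% ± 3.05 and 18.6% ± 1.76. The shares of Serpina1c, 25.1% ± 1.35 and 14.4% ± 1.03, and of Serpina1e, 15.8% ± 2.73 and 9.32% ± 1.80, were lower in every hyperthyroid library than in any hypothyroid one. Serpina1a had a share of 10.1% ± 1.65 and 9.21% ± 1.18, so that the paralogs did not change in proportion. The shares are a description with no test, and each moved by less than its SD when the transcript with the highest mean was taken. Unique windows ranged from 26.7% in Serpina1c to 65.3% in Serpina1e. A share is therefore one of listed RPKM, and its size is uncertain as the part of a paralog in the RNA.

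**Figure D2:**
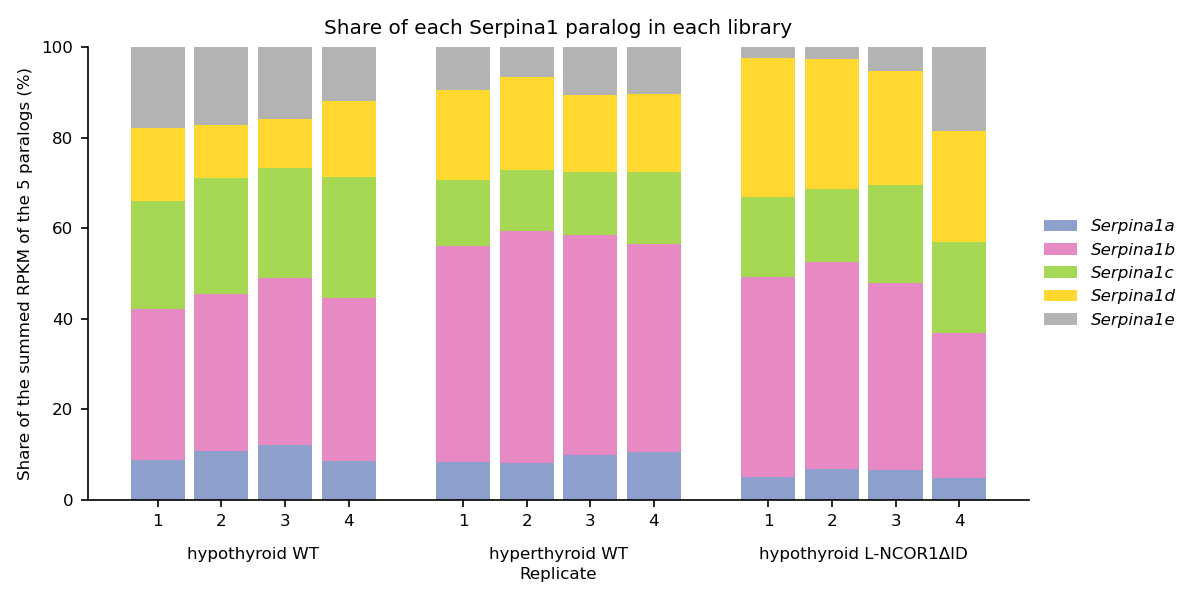
Share of each Serpina1 paralog in the summed RPKM of the 5 paralogs (percent, stacked) in each of the 12 libraries. RPKM is not corrected for the sequence that the paralogs share. Serpina1b takes 45.9% to 51.3% in hyperthyroid WT against 33.3% to 36.9% in hypothyroid WT, and Serpina1e takes 2.37%, 2.56%, 5.20% and 18.5% in the L-NCOR1ΔID libraries.

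The promoters of the paralogs are shown because Serpina1b and Serpina1d were called with T3 and the other 3 were not, although the sequences next to the start are close to identical. The block is 103 bases on the minus strand, RefSeq on GRCm38.p6, from chr12:103863629-103863731 (Serpina1a), chr12:103738204-103738306 (Serpina1b), chr12:103904966-103905068 (Serpina1c), chr12:103773638-103773740 (Serpina1d) and chr12:103956964-103957066 (Serpina1e), with capitals at the 10 positions that vary.
Serpina1a: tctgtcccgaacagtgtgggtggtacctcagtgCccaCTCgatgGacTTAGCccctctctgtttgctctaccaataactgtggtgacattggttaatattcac
Serpina1b: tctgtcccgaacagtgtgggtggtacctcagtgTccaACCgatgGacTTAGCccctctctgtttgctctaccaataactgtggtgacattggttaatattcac
Serpina1c: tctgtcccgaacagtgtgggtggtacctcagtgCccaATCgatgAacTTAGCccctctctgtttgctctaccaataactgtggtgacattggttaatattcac
Serpina1d: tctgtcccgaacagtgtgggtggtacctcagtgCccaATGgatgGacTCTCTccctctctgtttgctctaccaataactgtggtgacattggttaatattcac
Serpina1e: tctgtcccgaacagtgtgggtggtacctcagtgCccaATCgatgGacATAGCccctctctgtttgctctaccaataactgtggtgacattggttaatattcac
The last 13 bases, GGTTAATATTCAC, were taken from the Serpina1a promoter around its GTTAAT match. They occur on either strand in 5 of the 32851 promoters (0.0152%), those of the 5 paralogs. Since the sequence was chosen from these near-copies, the count only describes them and does not test for a shared element. The blocks were identical at 93.2% to 98.1% of positions, and Serpina1d differed most from the others. They end 4 to 15 bases before the annotated start in 4 paralogs and 66 bases before it in Serpina1e. The promoters of Serpina3k, Serpina6 and Serpina10 are not shown.

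Serpina3k, the member with the highest RPKM in every group, was at 2774, 4677, 4317 and 2924 RPKM in hypothyroid WT and at 5131, 4499, 3759 and 4762 RPKM in hyperthyroid WT libraries. The hyperthyroid values lay within or above the hypothyroid range, in which replicates 2 and 3 were the higher ones, the opposite of Serpina7 and Serpina6. The log2 fold change was 0.33 (95% confidence interval -0.16 to 0.83, adjusted p = 0.23), or 0.10 relative to the median of all genes.

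Serpina3n and Serpina10 spread more among the hyperthyroid libraries than among the hypothyroid ones. Serpina3n was at 223, 241, 249 and 241 RPKM in hypothyroid WT and at 424, 689, 227 and 230.2 RPKM in hyperthyroid WT libraries. Its log2 fold change was 0.56 (95% confidence interval -0.16 to 1.28, adjusted p = 0.17), or 0.33 relative to the median of all genes. Replicates 1 and 2 were above, and replicates 3 and 4 inside, the hypothyroid range. Serpina10 was at 84.4, 93.3, 86.8 and 84.1 RPKM and at 118, 184, 106 and 82.3 RPKM. Its log2 fold change was 0.43 (95% confidence interval -0.03 to 0.89, adjusted p = 0.11), or 0.20 relative to the median of all genes. Replicate 2 was again the highest hyperthyroid library.

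The acute phase genes, which the liver raises in inflammation, had the same library on top. Of the 18 tested, 8 rose with T3 and 0 fell (3 and 1 when scaled by the median of gene ratios), with a median log2 fold change of 0.91. Among all genes tested, 24.5% were called higher and 7.71% lower. Saa1, which encodes serum amyloid A and is close in sequence to Saa2, was at 9.16 to 14.5 RPKM in hypothyroid WT and at 673, 1388, 220.1 and 159 RPKM in hyperthyroid WT libraries (log2 fold change 5.27, adjusted p = 0.00016). Saa2, the heme carrier Hpx and Apcs, which encodes serum amyloid P, rose by 6.18, 1.36 and 1.09 on the log2 scale. The summed level of the 18 genes was 7023 to 7463 RPKM in hypothyroid WT and 15620.0, 22750.0, 10550.0 and 10090.0 RPKM in hyperthyroid WT libraries, in the order of the replicates. Neutrophil markers had summed levels of at most 0.777 RPKM in hypothyroid WT and of 9.91, 19.1, 5.27 and 1.70 RPKM in hyperthyroid WT libraries. Among them Elane was not higher, with means of 0.062 RPKM in hypothyroid and 0.0235 RPKM in hyperthyroid WT. Kupffer cell and macrophage markers, at 279.5, 216.5, 330.0 and 297.2 RPKM in hyperthyroid WT libraries, were instead lowest in replicate 2. The part of these cells in the values of Serpina3n and Serpina10 was not tested.

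In L-NCOR1ΔID mice, 1 of the 10 genes was called, Serpina1d, which rose. Of all 13790 genes tested, 1.27% were called in this comparison, 0.725% higher and 0.544% lower. The median log2 fold change of the 10 genes was -0.40, beside 0.03 for all genes, with 2 members above 0 and 8 below. Every L-NCOR1ΔID library lay above every hypothyroid WT one for 2 members and below for 2, against 7.78% and 5.36% of all genes tested.

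Serpina1d was at 1039, 1301, 1057 and 1389 RPKM in L-NCOR1ΔID libraries, against 377 to 663 RPKM in hypothyroid WT and 816 to 1140.5 RPKM in hyperthyroid WT. It rose 2.29-fold (log2 fold change 1.21, 95% confidence interval 0.80 to 1.63, adjusted p = 0.0088). The call was narrow: without any 1 library the adjusted p was 0.012 to 0.039, and it was 0.012 to 0.021 with no filter on low values, with no variance trend, with the replicate block and when libraries were scaled by the median of gene ratios. The log2 fold change stayed at 1.07 to 1.34 in these fits. Serpina1b was at 1482, 2080.3, 1724 and 1818 RPKM, all above the hypothyroid WT libraries, with a log2 fold change of 0.41 (95% confidence interval 0.10 to 0.73, adjusted p = 0.14), which was not called.

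Serpina1e differed most among the L-NCOR1ΔID mice themselves, at 79.97, 116, 217 and 1042 RPKM against 469 to 705 RPKM in hypothyroid WT. Replicates 1 to 3 lay below and replicate 4 above every hypothyroid WT library. The log2 fold change was -1.45 (95% confidence interval -2.98 to 0.08, adjusted p = 0.27) and was not called, whereas without replicate 4 it was -2.21 with an adjusted p of 0.0075, past the threshold. Serpina1a was at 174, 305, 280.3 and 268 RPKM, each below the lowest hypothyroid WT library at 313 RPKM, with a log2 fold change of -0.58 (95% confidence interval -1.01 to -0.16, adjusted p = 0.12). Serpina1c was at 594 to 1132 RPKM, with a log2 fold change of -0.21 (95% confidence interval -0.66 to 0.23, adjusted p = 0.59).

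The sum of the 5 paralogs was 3369, 4531, 4179 and 5649 RPKM in the L-NCOR1ΔID libraries, which overlapped with hypothyroid WT. Serpina1d took 27.4% ± 2.94 of it and Serpina1a 5.83% ± 1.03 (SD, n = 4 each), outside the hypothyroid WT ranges of 10.8% to 16.8% and 8.63% to 12.1%. Serpina1e took 2.37%, 2.56%, 5.20% and 18.5%, and in replicate 4, where its share was highest, Serpina1b had its lowest share of 32.2%, against 41.3% to 45.9% in the other L-NCOR1ΔID libraries.

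Both hormone carriers spread widely in L-NCOR1ΔID mice. Serpina7 was at 35.5, 17.8, 11.2 and 10.2 RPKM, which overlapped with hypothyroid WT at 14.5 to 54.3 RPKM and stayed far above hyperthyroid WT. Its log2 fold change was -0.62 (95% confidence interval -1.76 to 0.52, adjusted p = 0.53). Serpina6 was at 151, 222, 132 and 65.0 RPKM, with replicate 4 below every other library, and its log2 fold change was -0.60 (95% confidence interval -1.40 to 0.20, adjusted p = 0.38). For Serpina7 the interval does not reach the size of the change with T3, although the difference between the 2 comparisons was not itself tested.

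Serpina3n was lower in each L-NCOR1ΔID library, at 120.2, 180.5, 171 and 152 RPKM, than in any hypothyroid WT library, at 223 to 249 RPKM. The log2 fold change of -0.63 (95% confidence interval -0.91 to -0.35) had an adjusted p of 0.026 and missed the threshold. Of the 18 acute phase genes, 0 were called in L-NCOR1ΔID mice with limma (12 at an unadjusted p under 0.05), 15 had a log2 fold change above 0 and the median was 0.38, beside 0.03 for all genes. Their summed level was 7740.0, 11230.0, 9192 and 9713 RPKM, above hypothyroid WT at 7023 to 7463 RPKM in each library, whereas Serpina3n was below it in each. Neutrophil markers summed to 0.309 to 1.90 RPKM, against 0.212 to 0.777 RPKM in hypothyroid WT, and Kupffer cell and macrophage markers to 75.1 to 203 RPKM, against 72.02 to 103 RPKM, both overlapping, and their part in the value of Serpina3n was not tested. Serpina3k was at 2452, 2425, 3557 and 4339.6 RPKM and Serpina10 at 65.0, 98.1, 76.2 and 76.1 RPKM, both overlapping with hypothyroid WT. Their log2 fold changes were -0.21 (95% confidence interval -0.80 to 0.39, adjusted p = 0.70) and -0.16 (95% confidence interval -0.42 to 0.10, adjusted p = 0.48).

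**Figure D3:**
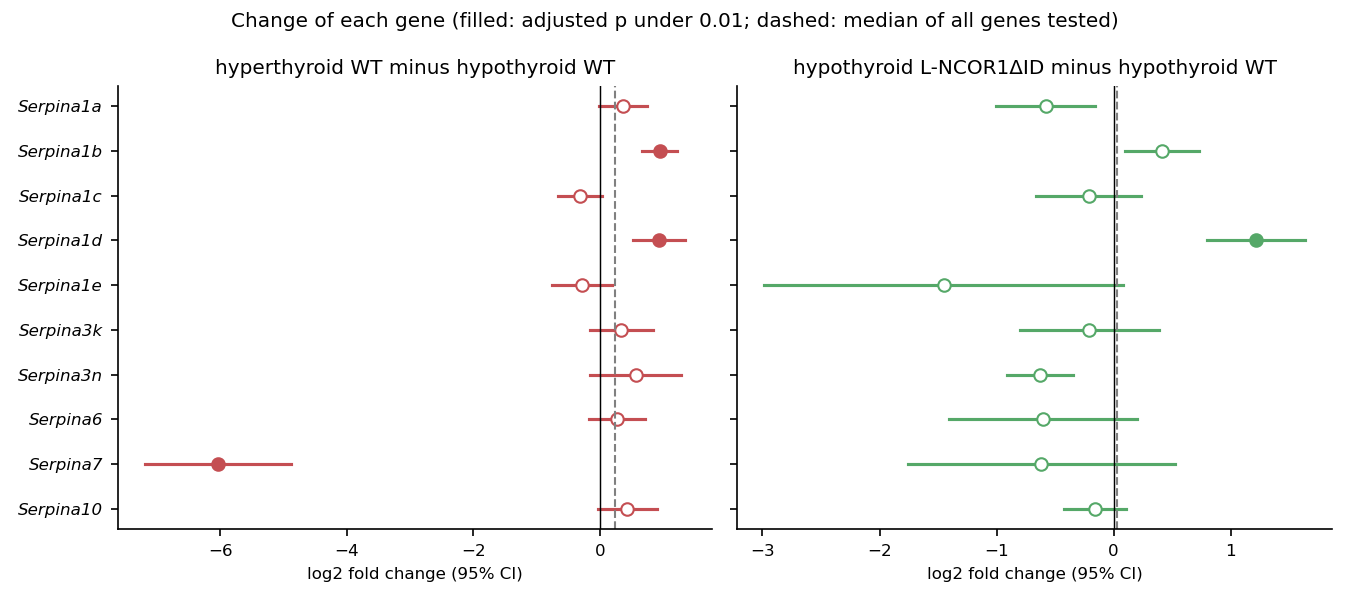
Log2 fold change of each gene with its 95% confidence interval, hyperthyroid WT (left) and L-NCOR1ΔID (right) against hypothyroid WT, on axes of different range. Filled points mark the called genes, 3 on the left and 1 on the right, and the dashed line marks the median of all genes tested at 0.23 and 0.03.

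By RPKM, Serpina3k and Serpina1b had the highest and Serpina10 and Serpina7 the lowest mean levels of the 10 genes in all 3 groups. In hypothyroid WT mice the order of mean levels was Serpina3k (3673 RPKM), Serpina1b (1329), Serpina1c (950.4), Serpina1e (593), Serpina1d (523), Serpina1a (379.6), Serpina3n (238), Serpina6 (205), Serpina10 (87.1) and Serpina7 (29.4 RPKM). The ranges of neighbours overlapped for Serpina1e and Serpina1d, for Serpina1d and Serpina1a, and for Serpina3n and Serpina6, and not for the others. In the other 2 groups Serpina1d came before Serpina1c, with overlapping ranges. The order is that of RPKM, and among the Serpina1 paralogs it is uncertain because they differ in unique sequence. The 10 genes together made up 1.75% to 2.33% of summed RPKM in hypothyroid WT, 2.43% to 3.01% in hyperthyroid WT and 1.63% to 2.61% in L-NCOR1ΔID libraries.

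A total of 9 members lie in 1 cluster of clade A serpins on chromosome 12 (mm9, GENCODE M1), which spans 798 kb from Serpina10 at chr12:104854885-104869654 to Serpina3n at chr12:105644939-105652539, and Serpina7 lies alone on the X chromosome at chrX:135613796-135619775. Serpina6 (chr12:104884840-104895422), Serpina1b (chr12:104966366-104976368), Serpina1d (chr12:105001804-105011802), Serpina1a (chr12:105091799-105104137), Serpina1c (chr12:105133136-105143097) and Serpina1e (chr12:105185141-105197185) are on the minus strand like Serpina10, and Serpina3k (chr12:105576696-105583951) and Serpina3n are on the plus strand. Serpina7 is on the minus strand. The 2 paralogs called with T3, Serpina1b and Serpina1d, are next to each other.

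Most of the other clade A serpins of the cluster had a log2 fold change below 0 in L-NCOR1ΔID mice, though few were called. Of the 14 tested, 3 fell and 0 rose, beside 0.544% of all genes called lower. Log2 fold changes were below 0 for 13 of the 14, with a median of -1.53 beside 0.03 for all genes. In limma, 12 of the 14 had an unadjusted p under 0.05, beside 2831 of all 13790 genes tested. Serpina3f fell by 2.56, Serpina3b by 3.12 and Serpina3h by 1.82 on the log2 scale (adjusted p = 0.0005, 0.00059 and 0.009). All 3 were low, with hypothyroid WT means of 3.10, 1.31 and 1.11 RPKM, and Serpina3b, with a mean of 0.067 RPKM in L-NCOR1ΔID mice, passed the filter on low values through hypothyroid WT. The 4 other clade A serpins of the cluster with a mean of at least 10 RPKM over all 12 libraries, named after their values were seen, were not called. For each of them every L-NCOR1ΔID library lay below every hypothyroid WT one, as for 5.36% of all genes tested. Since they were picked after their values were seen, this is a description only. Serpina3m was at 272 to 437 RPKM in hypothyroid WT and at 176 to 216 RPKM in L-NCOR1ΔID libraries (log2 fold change -0.83, adjusted p = 0.020). Serpina3c was at 103 to 223 RPKM in hypothyroid WT and at 0.160, 0.358, 45.8 and 0.962 RPKM in L-NCOR1ΔID libraries (adjusted p = 0.034), Serpina4-ps1 at 21.4 to 148 and at 1.51 to 13.1 RPKM (adjusted p = 0.020), and Serpina11, which follows Serpina1e in the cluster, at 64.4 to 107 and at 18.8 to 42.0 RPKM (adjusted p = 0.011).

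Several Serpina3 genes are close paralogs, and reads that they share have no value in any of them. Ren2, a renin gene that only some mouse strains carry, was at 14.7 to 46.4 RPKM in hypothyroid WT, 0.498 to 1.10 RPKM in hyperthyroid WT and 0.031 to 0.121 RPKM in L-NCOR1ΔID libraries. Ren1, its near-identical copy with which it shares reads, was at 15.6 to 49.7, 0.506 to 1.24 and 0.033 to 0.130 RPKM in the same groups. The value of Ren2 is therefore not a separate measure of that gene. Nnt, which is disrupted in C57BL/6J mice, was at 23.4 to 45.8 RPKM in all 12 libraries. The part of strain in these values was not tested.

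**Figure D4:**
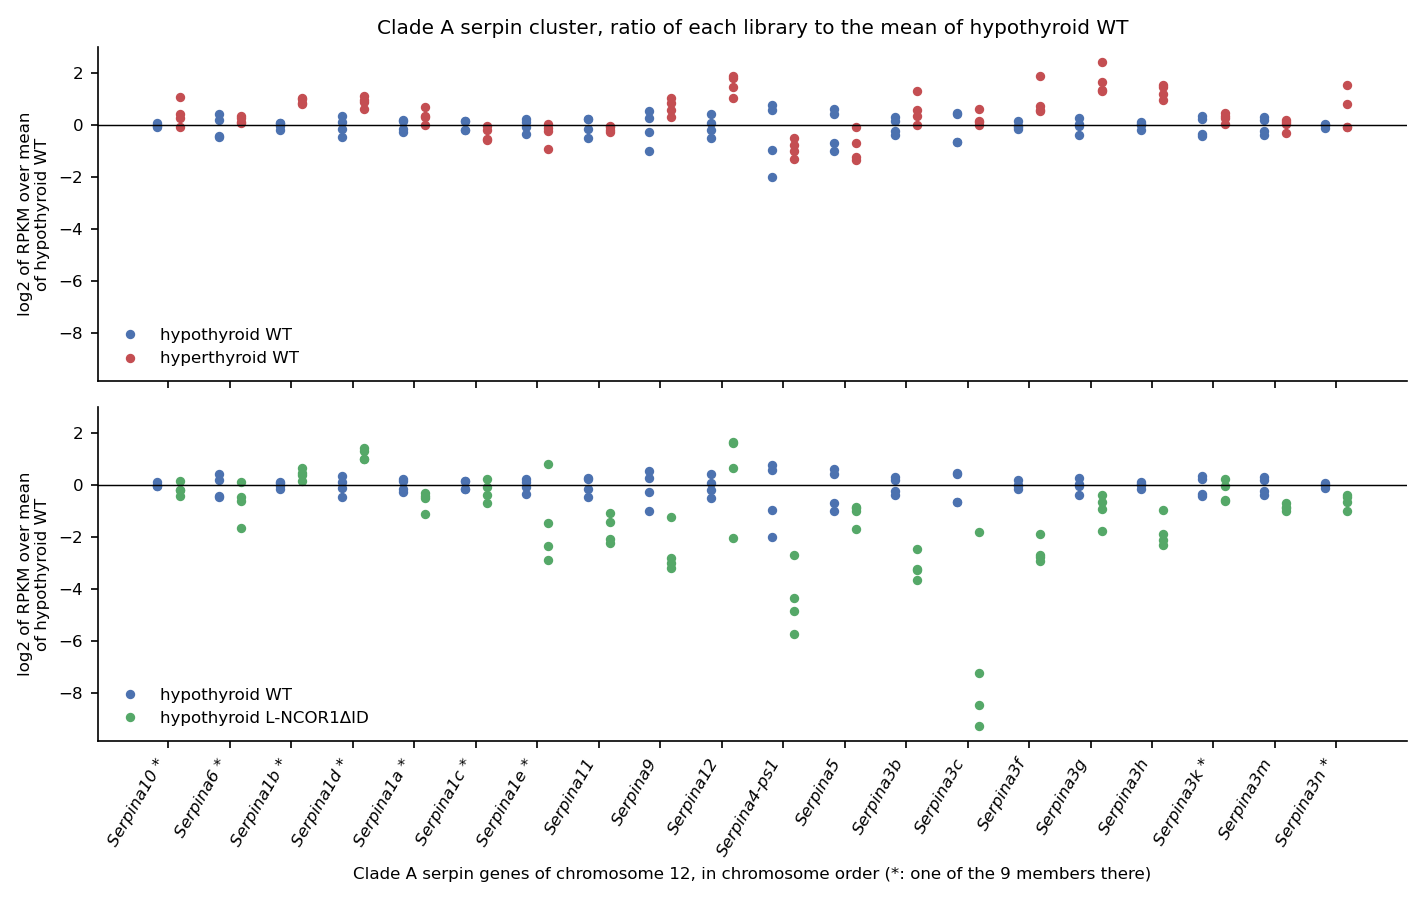
Log2 ratio of RPKM in each library to the mean of hypothyroid WT for the 20 clade A serpins of chromosome 12 with a mean of at least 0.5 RPKM over all 12 libraries, in chromosome order, with hyperthyroid WT above and L-NCOR1ΔID below. The 9 members are marked with asterisks, and Serpina3c lies at 0.160, 0.358, 45.8 and 0.962 RPKM in the L-NCOR1ΔID libraries against a hypothyroid WT mean of 162 RPKM.

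With T3, 4 of the 14 other clade A serpins tested rose and 0 fell, 4 also when scaled by the median of gene ratios, beside 24.5% of all genes called higher, and the difference from the L-NCOR1ΔID comparison was not tested. Their median log2 fold change was 0.46. Serpina3h rose by 1.30, Serpina3g by 1.72, Serpina12, which encodes the adipokine vaspin, by 1.60 and Serpina3i by 1.14 on the log2 scale. All 4 were low, at most 15.2 RPKM in any library. Of 8 plasma serpins of other clades, 1 rose and 3 fell with T3 (0 and 3 when scaled by the median of gene ratios), beside 24.5% and 7.71% of all genes. Serpinf2, the inhibitor of plasmin, rose by 0.46 on the log2 scale. Serpinf1, Serping1, the inhibitor of complement C1, and Agt, the precursor of angiotensin, fell by 0.51, 0.50 and 0.59. In L-NCOR1ΔID mice 0 of these 8 were called with limma (2 at an unadjusted p under 0.05).

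Proteases and cofactors that the inhibitors act on or with were not called in either comparison with limma, 0 of 6 tested (1 at an unadjusted p under 0.05 in each). When libraries were scaled by the median of gene ratios, 1 of them was called lower with T3, F10, which encodes coagulation factor X (log2 fold change -0.37, adjusted p = 0.008). Of 14 hepatocyte and acute phase transcription factors, 5 rose and 0 fell with T3 (4 and 1 when scaled by the median of gene ratios), beside 24.5% and 7.71% of all genes. Stat5a, Stat5b, Nr3c1, the glucocorticoid receptor, and Cebpb rose by 3.34, 1.76, 0.73 and 2.31 on the log2 scale. In L-NCOR1ΔID mice 1 of the 14, Cebpb, was called and rose by 1.32, beside 0.725% of all genes called higher.

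A start site inside an acetylated region was found for 9 of the 10 genes. The deposited list of 37200 regions joins H3K9 and H3K27 acetylation in hypothyroid and hyperthyroid WT mice, so that it gives no level and no condition. Serpina1e was the exception, with its start 697 bases from a region of 9391 bases. Of 12314 genes tested with T3 that have a position, 86.0% had the start in a region and 87.9% within 1 kb of one, and the members' count was near that share. The region at the start was 8208 bases long for Serpina7 (chrX:135617464-135625671) and 18045 bases for Serpina1c, the longest of the 10. The 798 kb of the cluster held 32 regions.

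**Figure D5:**
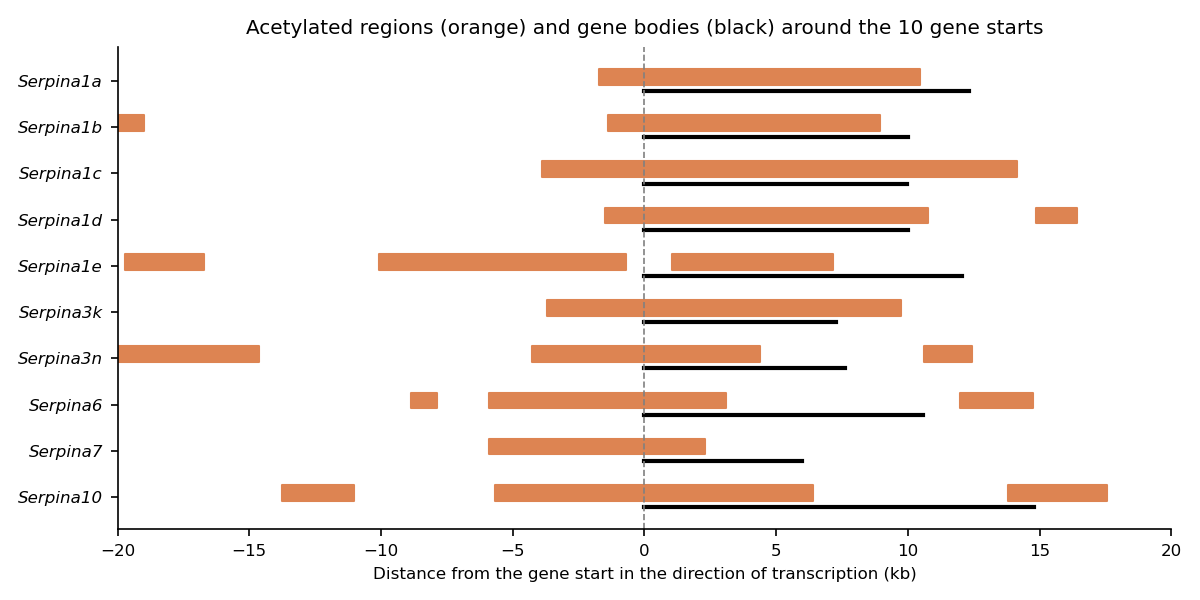
Acetylated regions (orange) and gene bodies (black) within 20 kb of the start of each gene, by distance from the start in the direction of transcription (kb). The starts of 9 genes lie in a region, and that of Serpina1e lies between 2 regions, 0.697 kb from the nearer one.

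Genes whose pattern over the 12 libraries was most like that of a member were sought among 10663 genes with a mean of at least 1 RPKM, by Pearson's r of log2(RPKM + 0.1). For Serpina7 these were Rdh16 (r = 0.987), a retinol dehydrogenase, Etnppl (r = 0.983), an enzyme of ethanolamine phosphate breakdown, and Akip1 (r = 0.982). Rdh16 had means of 28.6, 3.42 and 30.6 RPKM and Etnppl of 173, 4.10 and 90.9 RPKM in hypothyroid WT, hyperthyroid WT and L-NCOR1ΔID mice. For Serpina3n they were Ell, Nfkbiz and Wdr45b (r = 0.959, 0.925 and 0.914), and for Serpina10 Il17ra, Nfkbiz and Tifa (r = 0.968, 0.962 and 0.947). Nfkbiz, an inflammatory regulator named for both, had means of 3.12, 11.2 and 2.12 RPKM. For Serpina6 they were Clk1, Mir5107 and Fam234a (r = 0.916, 0.905 and 0.869). These values describe 12 libraries that share group differences and depth, and carry no test.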

How the data were processed

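Poly(A) RNA-seq libraries of 12 livers, 4 per group, were used, each with runs from 2 instrument models per the labels. The authors aligned reads to mm9 with STAR and quantified uniquely aligned reads per RefSeq transcript with HOMER. The deposited values are RPKM, scaled by the authors to the aligned reads of each library, and DESeq2, which the submitters' processing notes also name, was not used here. Strandedness of the libraries was not given in the sources used here.

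The table lists 31370 transcripts. A single nameless row was dropped, and each of 23813 genes was read from its first row (9 members have 1 row, Serpina1a has 2). The table has 0 unused columns of per-sample values. Depth was estimated from the steps between low RPKM values and GENCODE M1 lengths (within 0.05 reads of a whole number for 63.9% to 71.8% of values), and at 21300000 to 42700000 reads per library 0.1 RPKM is 2.13 to 4.27 reads per kilobase. A gene entered a fit of 8 libraries if 4 or more of them reached 0.1 RPKM. The tests were two-sided in limma 3.58.1 under R 4.3.3, with log2(RPKM + 0.1) as the response and eBayes with a trend, with Benjamini-Hochberg adjustment over all genes tested, and called at an adjusted p under 0.01. Only the groups compared entered a fit, and p-values measure the spread between mice. The fit was tested on simulated data. Confidence intervals are 95% and not adjusted.

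The deposited coordinates of acetylated regions are on mm9 and carry no other unit or score per the file. Genes were placed with GENCODE M1 on that build, promoters came from RefSeq (GRCm38.p6), and tables and plots were made in Python 3.11.15 (pandas 2.3.3, numpy 2.4.6, matplotlib 3.10.9).

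The members and gene lists were chosen with earlier results of these data known. The text names all members, at most 4 called genes per list and comparison with the smallest adjusted p, a few fixed control genes (Alb, Ttr, Ncor1, Thrsp, Dio1, Nnt and Ren2), and the 3 genes most like Serpina3n, Serpina6, Serpina7 and Serpina10; others are marked. ChIP-seq levels were not analysed here.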

Additional observations from a re-analysis of the deposited data

Results flagged for a closer look

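The level of Serpina1e in L-NCOR1ΔID replicate 4, 1042 RPKM, lay far from the other 3 libraries of its group, which were at 79.97, 116 and 217 RPKM, and the gap to the nearest made up 85.7% of the range of the group. It was the only one of 33 sets of 4 libraries (the 10 genes and the sum of the Serpina1 paralogs in 3 groups) in which the highest or lowest library stood apart in this way, and chance alone gives this in about 1 in 20 sets. The rule was applied to RPKM and not on the log2 scale of the fits. In the same library Serpina6 was the lowest of its group at 65.0 RPKM and Serpina3k the highest at 4339.6 RPKM.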

How the results depend on the processing

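No member reversed its direction under any of the 11 alternatives or the 8 leave-one-out fits of each comparison. With T3, 4488 genes were called, 6880 at an adjusted p under 0.05 and 1639 where the log2 fold change also had to exceed 1 in size, and leaving out 1 library gave 3184 to 3892. The 3 members called with T3 became 1 (Serpina7) under that second rule, and 2 when libraries were scaled by the median of gene ratios (a split of 47.2% higher among all called genes, against 76.0%). In L-NCOR1ΔID mice, 175 genes were called, 601 at an adjusted p under 0.05, and 67 to 187 with 1 library left out. The count of 1 member called there was 2 at an adjusted p under 0.05, and 0 with no filter on low values, with no variance trend and when scaled by the median of gene ratios (limma, 4 members at an unadjusted p under 0.05 in each of these). Leaving out 1 library gave 0 to 1 members: 0 without any of the 4 hypothyroid WT libraries or L-NCOR1ΔID replicates 1, 2 or 3, and without replicate 4 the 1 called member was Serpina1e in place of Serpina1d. The causes were not tested.

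Replicate numbers are shared by the groups, but the samples of a number did not deviate together (r from -0.06 to 0.07 for T3 and from -0.12 to 0.17 for L-NCOR1ΔID). With the replicate block, 3606 genes and 3 members were called with T3, and 45 genes and 0 members in L-NCOR1ΔID mice (4 members at an unadjusted p under 0.05). Depth limits Serpina7 in hyperthyroid WT, where the lowest library held about 4.9 reads.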
